A study of Mus musculus with 6 samples.

Results

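The TAM receptors Axl, Mertk and Tyro3 and their ligands Gas6 and Pros1 were followed in microglia and in neural stem and progenitor cells (NSPCs) of the adult mouse subventricular zone (SVZ) after a cortical stroke. The 5 genes were taken by name, as the 3 receptors and 2 ligands of this family, from the 34203 genes of the count matrix. All 5 were detected, with 749 unique molecular identifiers (UMIs) for Mertk, 337 for Pros1, 264 for Gas6, 179 for Axl and 67 for Tyro3 over all cells. A UMI is a random tag put on each captured mRNA molecule, so that copies of 1 molecule are counted once.

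The cells came from adult Nestin-CreERT2:R26-yfp mice, in which tamoxifen activates a Cre recombinase driven by the Nestin promoter and thereby marks neural stem cells and their progeny with a yellow fluorescent protein. This genotype and the tamoxifen were common to the 3 groups, which were uninjured mice, mice 1 day after photothrombosis (PT D1) and mice 7 days after it (PT D7). In photothrombosis (PT), Rose Bengal and light close the vessels of a patch of cortex, and the SVZ of the same hemisphere was dissected here, at a distance from the lesion. The sorting gates were CD11b+ CD45low for microglia and the fluorescent protein for NSPCs, and the cells were sequenced by mCEL-Seq2, a plate method that counts the 3′ ends of polyadenylated mRNA, in 2 libraries per group. The enzymes of the dissociation were dosed for several mice together, no source used here ties a library to its animals, and nothing says that the libraries of a group came from separate animals. The p values below therefore measure only the spread between libraries. No source used here says which libraries shared a plate, so differences between plates were not tested.

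The matrix held 658 cells, of which the authors named 416 microglia, in 5 clusters, and 222 NSPCs, in 4 subclusters, with 20 cells left as a mixed group. No cell name was shared between libraries. The microglia of a library held 294984 to 468186 UMIs and its NSPCs 82504 to 497292. In each group library 1 held fewer NSPCs than library 2, with 16 against 59 in uninjured mice, 19 against 52 at PT D1 and 15 against 61 at PT D7. The 8 listed microglia markers, P2ry12, Tmem119 and Cx3cr1 among them, summed to 10700 UMIs per 1000000 (CPM) in microglia and 391 CPM in NSPCs, and the neuroblast markers to 123 and 3110 CPM. Ttr and 3 other choroid plexus markers summed to 10500 and 4630 CPM in uninjured microglia against 196 to 610 CPM after PT, and to 1520 and 3780 CPM in uninjured NSPCs against 44.4 to 97.0 CPM after PT, and their part in the results was not tested.

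TAM receptors are tyrosine kinases of the cell surface. Gas6 and protein S, the product of Pros1, bridge them to phosphatidylserine that dying cells expose, so that phagocytes can bind and engulf such cells. Gas6 binds all members of the family, while protein S acts mainly on Mertk and Tyro3. In brain macrophages the family is known for clearing dying cells and for damping cytokine signalling through Socs proteins, and in the adult SVZ microglia take up newborn cells that die.

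In the GRCm39 assembly with the GENCODE annotation, Axl lies on chromosome 7 from 25456535 to 25488329 on the minus strand, Mertk on chromosome 2 from 128540729 to 128645080 and Tyro3 on chromosome 2 from 119628214 to 119648738, both on the plus strand. Gas6 lies on chromosome 8 from 13515371 to 13544824 on the minus strand and Pros1 on chromosome 16 from 62674275 to 62749710 on the plus strand. Gas6 overlaps Tmem255b on the other strand, and Mertk and Pros1 overlap long noncoding RNAs on the other strand. The use of strand in counting is not stated by any source used here, and UMIs of these 3 genes could include molecules of the partner. The 200 bases before the annotated start of Axl and of Mertk, the receptors that the results turn on, are shown from GRCm39, 5′ to 3′ on the strand of the gene, with matches to the searched motifs in capitals.

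Axl, chr7:25488330-25488529: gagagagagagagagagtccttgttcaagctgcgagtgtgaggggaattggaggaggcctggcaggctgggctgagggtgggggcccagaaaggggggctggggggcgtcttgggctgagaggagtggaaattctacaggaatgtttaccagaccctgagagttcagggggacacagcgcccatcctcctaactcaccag

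Mertk, chr2:128540529-128540728: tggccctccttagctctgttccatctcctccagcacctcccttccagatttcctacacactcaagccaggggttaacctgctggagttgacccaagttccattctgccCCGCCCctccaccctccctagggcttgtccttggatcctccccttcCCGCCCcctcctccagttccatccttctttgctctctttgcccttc

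Both strands were searched for the GC box (GGGCGG), a core of PU.1 sites (GAGGAA), and the AP-1 (TGANTCA), STAT (TTCNNNGAA) and E-box (CACGTG) letters. The Mertk window held 2 GC boxes, a motif found in 28.6% of the 21738 windows of this length before protein-coding genes, and the Axl window held none of the 5 motifs. Of the 5 members, Pros1 alone had a match to the PU.1 letters, with 2 in its window, against 18.6% of all windows. The counts measure mRNA and not the activity of these sequences.

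The receptors were not spread alike over the subclusters. Levels are given first as unscaled CPM, the UMIs of a gene per 1000000 UMIs of the subcluster, with exact Poisson intervals at 95% that cover counting error only. The subclusters were drawn by the authors from all genes, the members included, so these levels are a description and no test was made between subclusters. Because 1 UMI stands for 1 molecule at its 3′ end, levels were not divided by gene length.

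Axl stood at 219 CPM (167 to 283) in microglial cluster 4, the cluster in which the disease-associated microglia markers Apoe, Clec7a, Cst7, Lpl, Itgax and Cd52 summed to 13800 CPM against 1460 to 3120 CPM in the other microglial clusters. Most of this sum was Apoe, with 12400 CPM in cluster 4 and 1270 to 2990 CPM in the other microglial clusters. Axl stood at 7.15 CPM (2.62 to 15.6) in cluster 0, which had the highest sum of microglia markers, 15600 CPM. Clusters 1, 2 and 3 lay between, at 21.8 CPM (11.3 to 38.2), 20.7 CPM (8.33 to 42.7) and 67.8 CPM (38.8 to 110). The intervals of clusters 0, 1 and 2 overlapped with one another and that of cluster 2 with that of cluster 3, so that cluster 4 alone stood apart from each other cluster. Of the 37 cluster 4 cells, 26 (70.3%) held an Axl UMI, 14 of them 1 UMI, 4 of them 2 and 8 of them 3 or more, whereas 5 of 175 cluster 0 cells (2.86%) did. Cluster 4 cells were also deeper, with a median of 6785 UMIs against 4759 in cluster 0, and after thinning each cell to 1000 UMIs the shares expected were 20.5% and 1.05%. Cluster 4 thus stayed far above cluster 0 at equal depth.

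In the NSPC lineage Axl was highest in quiescent type B cells, the slowly cycling stem cells, at 123 CPM (86.5 to 169). It stood at 50.4 CPM (31.2 to 77.1) in activated type B cells, at 20.2 CPM (8.74 to 39.9) in type C cells, the transit-amplifying progenitors, and at 21.7 CPM (10.4 to 40.0) in neuroblasts. The order fell from quiescent to activated stem cells, whose intervals did not overlap, while activated type B, type C and neuroblasts overlapped in neighbouring pairs. The order rests on few molecules, 37 in the quiescent cells and 8 in the type C cells.

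Mertk, a receptor that many resident macrophages carry, gave more UMIs than Axl or Tyro3 in each of the 5 microglial clusters. Its unscaled level was 411 CPM (369 to 457) in cluster 0, 297 CPM (253 to 346) in cluster 1, 238 CPM (183 to 304) in cluster 4, 222 CPM (175 to 278) in cluster 2 and 203 CPM (150 to 270) in cluster 3. Pooled over groups, cluster 0 stood above the other clusters beyond counting error. At PT D7 alone its interval (294 to 477) lay above those of cluster 2 (150 to 281) and cluster 4 (146 to 276). In uninjured mice it (375 to 476) lay above that of cluster 2 (169 to 362) and overlapped with that of the 6 cluster 4 cells (215 to 543). At PT D1 cluster 0 held 1 cell, so it could not be compared with cluster 1, which lay in that group only. The intervals of clusters 1, 2, 3 and 4 overlapped with one another, so that these clusters could not be ordered. Of 416 microglia, 302 (72.6%) held a Mertk UMI. In NSPCs Mertk was at 120 CPM (83.7 to 165) in quiescent type B cells, 26.4 CPM in activated type B cells and 4.35 CPM in neuroblasts, and 0 of 47 type C cells held a UMI, for which the exact interval reaches 7.55%, a limit on detection in these cells and not on their expression of the gene.

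Tyro3, the third receptor, had the opposite distribution. It gave 7 UMIs in 416 microglia, or 3.14 CPM (1.26 to 6.46), and none in the 104 cells of cluster 1. In NSPCs it gave 57 UMIs, or 36.2 CPM (27.4 to 46.9), and was highest in activated type B cells at 74.5 CPM (50.6 to 106) and type C cells at 40.5 CPM (23.1 to 65.7). Quiescent type B cells and neuroblasts stood at 16.6 CPM (5.39 to 38.7) and 10.9 CPM (3.53 to 25.4). The activated stem cells thus lay above the quiescent ones for Tyro3 and below them for Axl and Mertk, and the pooled intervals were apart for each of the 3 receptors. Of the 36 Mertk UMIs of quiescent type B cells, 22 lay in the 17 of 50 cells with 3 or more microglia marker UMIs. In cells with fewer, quiescent against activated levels were 87.1 against 52.4 CPM for Mertk, 131 against 75.7 CPM for Axl and 18.7 against 87.4 CPM for Tyro3. No intervals were computed for these cells, so a separation beyond counting error was not shown without the marker cells.

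Both ligands were higher in microglia than in NSPCs. Gas6 stood at 77.1 CPM (66.0 to 89.5) in microglia and 11.4 CPM (6.78 to 18.1) in NSPCs, and within microglia it was highest in cluster 0 at 113 CPM (91.6 to 138) and lowest in cluster 4 at 40.9 CPM (20.4 to 73.2). Pooled over groups, the interval of cluster 0 overlapped with that of cluster 2 (50.3 to 113) and lay above those of clusters 1, 3 and 4. Clusters 1 to 4 could not be ordered. Of the 175 cluster 0 cells 124 were uninjured. Within uninjured mice the Gas6 intervals of cluster 0 (100 to 157) and cluster 4 (19.2 to 180) overlapped. At PT D7 those of cluster 0 (37.4 to 120), cluster 2 (41.6 to 123) and cluster 4 (14.0 to 71.5) overlapped as well. Cluster and group thus could not be told apart for Gas6. Pros1 stood at 122 CPM (108 to 138) in microglia and 25.4 CPM (18.2 to 34.6) in NSPCs. It differed less between microglial clusters, with 156 CPM (131 to 185) in cluster 0, 141 CPM (100 to 194) in cluster 4 and 76.3 to 104 CPM in the other clusters. At least 1 receptor UMI and at least 1 ligand UMI were found together in 210 of 416 microglia (50.5%) and in 25 of 222 NSPCs (11.3%). A cell with few molecules can miss either, so these shares are not shares of cells that make both.

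**Figure D1:**
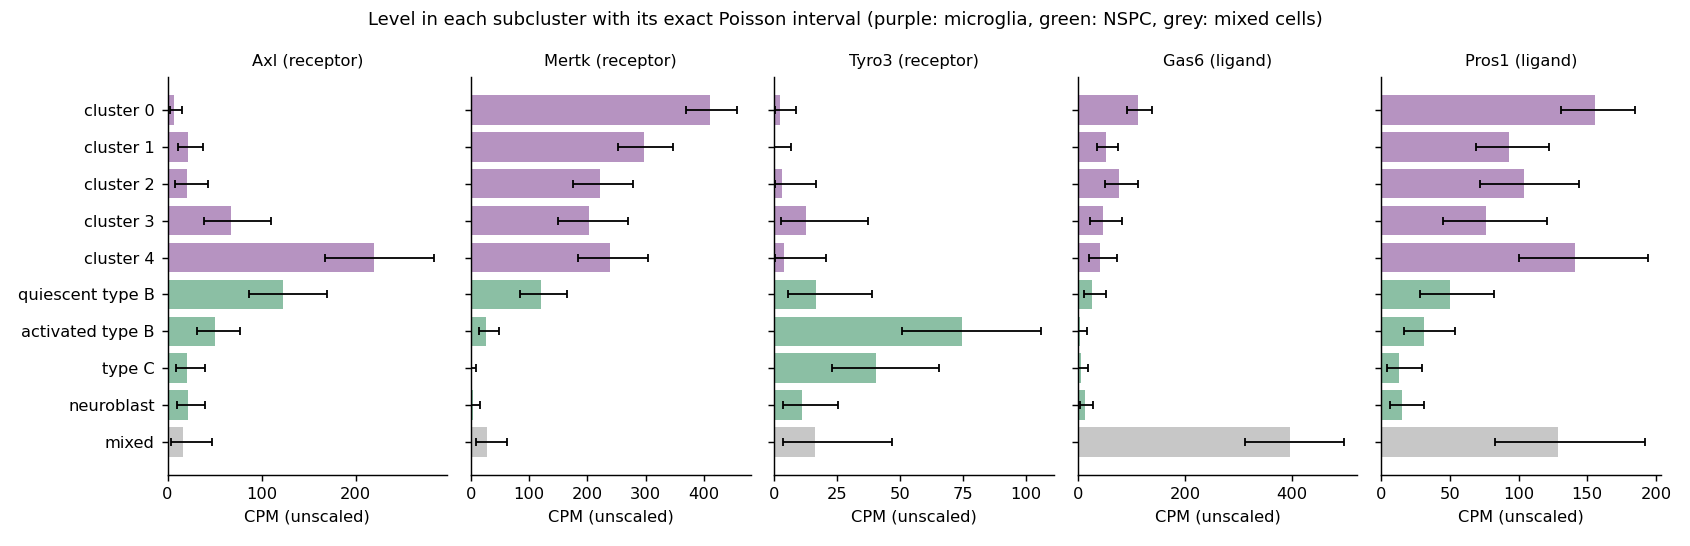
Unscaled CPM of each member (horizontal axis, linear, own scale per panel) in the 5 microglial clusters, the 4 NSPC subclusters and the mixed cells (vertical axis), with bars for the pooled level over all libraries and lines for exact Poisson intervals at 95%. Axl is longest in cluster 4 (219 CPM) and quiescent type B cells (123 CPM), Mertk in cluster 0 (411 CPM), Tyro3 in activated type B cells (74.5 CPM), Gas6 in the mixed cells (397 CPM) and Pros1 in cluster 0 (156 CPM).

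To ask what changed after PT, the UMIs of each library were added up separately for its microglia and its NSPCs. The sums were compared by the quasi-likelihood test of edgeR, and p values were adjusted by Benjamini-Hochberg over every gene tested in that class. Levels in this part are TMM-scaled CPM of these sums, a scaling that corrects for the composition of a library, and changes are log2 fold changes. The standard error (SE) of a change was derived from the test, as its absolute value divided by the square root of the F statistic. Calls were made below an adjusted p of 0.05.

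The receptor Axl rose in microglia at PT D7. Its scaled level was 11.3 and 16.6 CPM in the uninjured libraries, 21.3 and 55.8 CPM at PT D1, and 117 and 111 CPM at PT D7, from 4, 8, 7, 23, 28 and 30 UMIs. Both PT D7 libraries lay above all others, both PT D1 libraries lay above both uninjured ones, and the PT D1 libraries differed from each other more than those of any other group. At PT D7 against uninjured the log2 fold change was 2.96 (SE 0.47, adjusted p = 0.029, edgeR's quasi-likelihood test). Axl was the 1 member called of 4 tested in this comparison, in which 0.165% of 4846 genes were called.

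The Axl UMIs of PT D7 lay mostly in 1 cluster. Cluster 4 made up 29 of the 114 PT D7 microglia (25.4%) and held 49 of their 58 Axl UMIs (84.5%), with 26 UMIs in 16 cells of library 1 and 23 UMIs in 13 cells of library 2. In uninjured mice 6 of 155 microglia (3.87%) were in cluster 4 and held 8 of 12 Axl UMIs. Within cluster 4 the unscaled level in the uninjured libraries was 161 CPM, from 1 UMI in 1 cell, and 138 CPM, from 7 UMIs in 5 cells. It was 192 CPM in the 2 cells of PT D1, and 241 and 246 CPM at PT D7. Pooled by group this was 141 CPM (60.8 to 277) in uninjured mice and 243 CPM (180 to 321) at PT D7, and the intervals overlapped. When the cluster 4 cells were left out of the sums, the log2 fold change of Axl was 2.30 and was not called (adjusted p = 0.993 by the same test). The remaining Axl UMIs were 4 in cluster 0 of uninjured mice, and 2 in cluster 0 and 7 in cluster 2 at PT D7. Since the clusters were drawn with Axl among the genes, this omission takes out Axl-rich cells by construction. The lost call therefore cannot decide where the change lay.

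Within cluster 0, the only cluster with 10 or more cells in 2 libraries of both groups, Axl gave 3 and 1 UMIs in the uninjured libraries and 0 and 2 at PT D7, too few to be tested. The cells of cluster 2 held 0 Axl UMIs in 22 uninjured cells, which allows up to 32.1 CPM, and 7 in 33 PT D7 cells, or 34.7 CPM (14.0 to 71.5), 5 of them in library 2. Those 5 UMIs lay in 1 cell.

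The call on Axl at PT D7 changed with the scaling, the libraries and the cells used. Without TMM scaling, which shifted the median of all genes to -0.25 in this comparison, the log2 fold change was 2.73 (adjusted p = 0.0927). The call was lost when any 1 of the 4 libraries compared was left out, with adjusted p = 0.385 without uninjured library 1, 0.204 without uninjured library 2, 0.224 without PT D7 library 1 and 0.0909 without PT D7 library 2, while the log2 fold change stayed between 2.74 and 3.29. Of 416 microglia, 34 held a UMI of the border macrophage markers Mrc1, Cd163, Lyve1, Pf4, F13a1 or Ms4a7. The 10 such cells of PT D7 held 19 of the 58 Axl UMIs, the summed level of the list was 111 to 132 CPM in the uninjured libraries and 20.2 to 81.4 CPM at PT D7, and in cluster 4 it was 37.2 CPM, with 6 UMIs of Ms4a7, 3 of Mrc1 and 1 of F13a1, and Cd163, Lyve1 and Pf4 at 0. The part of such cells in the result was not tested further than by leaving them out. Without these 34 cells the log2 fold change of Axl was 2.49 and the adjusted p = 0.0872 by edgeR's quasi-likelihood test, an alternative chosen after seeing the data.

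At PT D1 the difference in Axl was smaller and was not called. The log2 fold change against uninjured was 1.45 (SE 0.52, adjusted p = 0.133), beside 5.7% of 4846 genes called and 0 of 4 members. The 23 UMIs of PT D1 library 2 lay for the most part in cluster 3, with 16 UMIs in 35 cells, and that cluster had 1 cell and 0 Axl UMIs in PT D1 library 1. Of these 16 UMIs, 7 lay in 1 cell. In cluster 1, which held 64 and 40 cells of the PT D1 libraries and no cell of another group, the unscaled level was 15.4 and 31.2 CPM. Without PT D1 library 1 the change was called, at 1.91 (adjusted p = 0.0138), whereas without PT D1 library 2 it was 0.54 (adjusted p = 0.756) and without cluster 3 cells 0.83 (adjusted p = 0.379), by edgeR's quasi-likelihood test.

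Between PT D7 and PT D1 the log2 fold change of Axl was 1.51 (SE 0.41, adjusted p = 0.0678), and 0 of 4 members were called beside 3.8% of all genes. With a block for the library number, the same difference was 1.54 and was called (adjusted p = 0.00802), and it was called without cluster 3 cells as well (2.08, adjusted p = 0.00505). It turned to -0.45 (adjusted p = 0.824) without cluster 4 cells, an omission that takes out Axl-rich cells by construction.

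Mertk was lower in both PT groups by less than the test could call. Its scaled level in microglia was 388 and 388 CPM in the uninjured libraries, 328 and 267 CPM at PT D1, and 313 and 289 CPM at PT D7. The uninjured libraries lay above the 4 PT libraries, and the PT groups overlapped. The difference from uninjured was -0.38 (SE 0.24, adjusted p = 0.383) on the log2 scale at PT D1 and -0.37 (SE 0.24, adjusted p = 0.806) at PT D7. Within cluster 0 it was -0.18 (SE 0.26, adjusted p = 0.97) at PT D7, from 471 and 536 scaled CPM in the uninjured libraries against 448 and 444 CPM, and 0 of 3 members tested there were called beside 0.153% of 2618 genes.

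The make-up of the receptor mRNA in microglia followed these levels. Axl made up 2.82% (0.773 to 7.06, exact binomial interval) and 4.04% (1.76 to 7.81) of the Axl, Mertk and Tyro3 UMIs in the uninjured libraries. It made up 6.09% (2.48 to 12.1) and 17.0% (11.1 to 24.5) at PT D1, and 27.2% (18.9 to 36.8) and 27.5% (19.4 to 36.9) at PT D7. The PT D7 libraries lay above the others, although their intervals overlapped with that of PT D1 library 2. This share does not depend on how the libraries were scaled. Within cluster 4 alone Axl gave 1 of 4 and 7 of 25 receptor UMIs in the uninjured libraries and 26 of 50 and 23 of 40 at PT D7. The interval of uninjured library 2 (12.1 to 49.4) overlapped there with those of PT D7 (37.4 to 66.3 and 40.9 to 73.0).

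**Figure D2:**
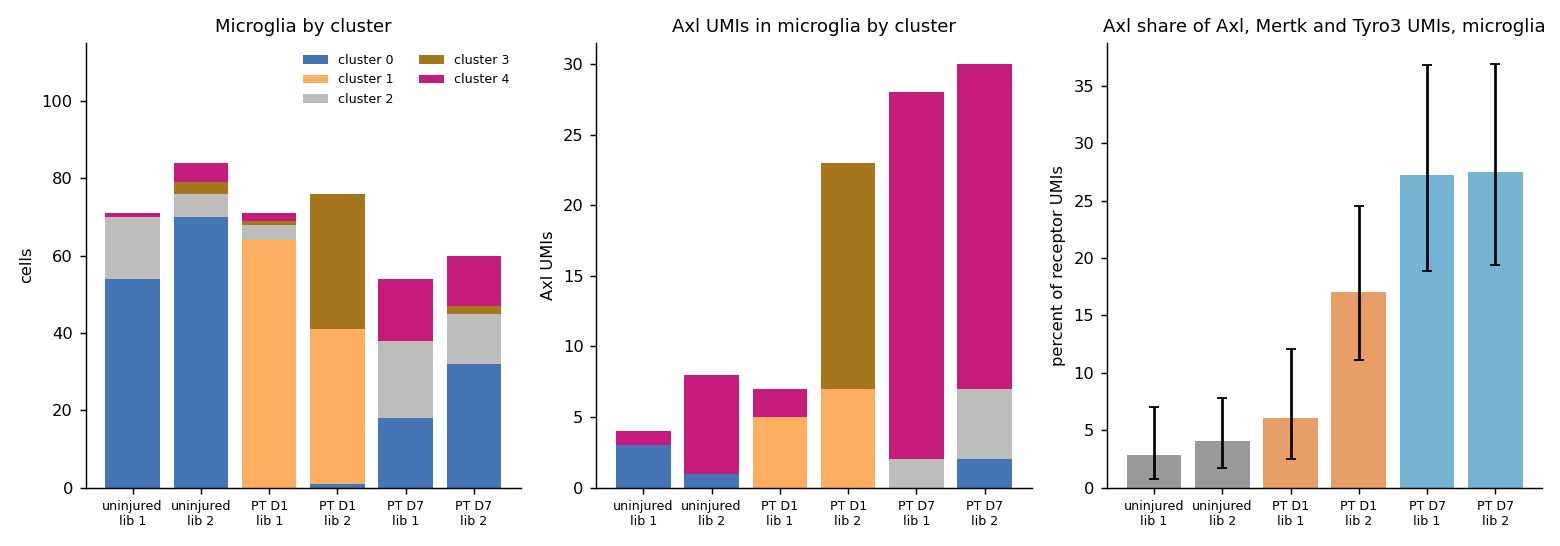
Left, microglia of each library by cluster (vertical axis, cells). Middle, the Axl UMIs of the same cells by cluster (vertical axis, UMIs). Right, Axl as a percent of all Axl, Mertk and Tyro3 UMIs of the microglia, with exact binomial intervals at 95%. The PT D7 libraries hold 28 and 30 Axl UMIs, 26 and 23 of them in cluster 4, and PT D1 library 2 holds 16 of its 23 in cluster 3.

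The ligand Gas6 had its lower values in the microglia of the PT libraries, without a call. Its scaled level was 130 and 106 CPM in the uninjured libraries, 63.8 and 46.1 CPM at PT D1, and 83.5 and 55.6 CPM at PT D7. The uninjured libraries lay above all PT libraries, and PT D1 and PT D7 overlapped. The log2 fold change was -1.10 (SE 0.33, adjusted p = 0.0811) at PT D1 and -0.76 (SE 0.34, adjusted p = 0.666) at PT D7 by edgeR's quasi-likelihood test. With a block for the library number, the PT D1 difference was -1.11 and was called (adjusted p = 0.0166), and 5 of 18 alternatives called it. Within cluster 0 the difference at PT D7 was -0.88 (SE 0.43, adjusted p = 0.733), from 170 and 137 scaled CPM against 71.7 and 88.9 CPM.

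Over all libraries Gas6 stood at 174 unscaled CPM in microglia that held a border macrophage marker UMI and at 67.5 CPM in the other microglia. These levels were 271 and 103 CPM in uninjured mice and 239 and 35.9 CPM at PT D1, whereas at PT D7 the marker cells had the lower pooled level, 49.6 against 60.7 CPM. The PT D7 libraries differed in this, with 108 and 62.1 CPM in library 1, and 0 UMIs in 4 marker cells against 59.3 CPM in library 2. The marker cells, 15 in the uninjured libraries, 9 at PT D1 and 10 at PT D7, held 18 of 97, 13 of 40 and 4 of 35 Gas6 UMIs. Without them the PT D1 difference was -1.36 and was called (adjusted p = 0.0265 by edgeR's quasi-likelihood test).

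Pros1, the gene of protein S, differed less between groups than Gas6. Its scaled level in microglia was 150 and 164 CPM in the uninjured libraries, 103 and 89.8 CPM at PT D1, and 121 and 152 CPM at PT D7. The PT D1 libraries were the lowest and did not overlap with the other groups, and PT D7 library 2 lay between the uninjured ones. The log2 fold change was -0.71 (SE 0.27, adjusted p = 0.162) at PT D1, -0.20 (SE 0.27, adjusted p = 0.928) at PT D7 and 0.51 (SE 0.29, adjusted p = 0.379) for PT D7 against PT D1, all by edgeR's quasi-likelihood test. Of the ligand UMIs of microglia, Gas6 made up 46.5% and 39.2% in uninjured mice, 38.2% and 33.9% a day after PT, and 40.8% and 26.8% at PT D7, so that PT D7 overlapped with both other groups.

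**Figure D3:**
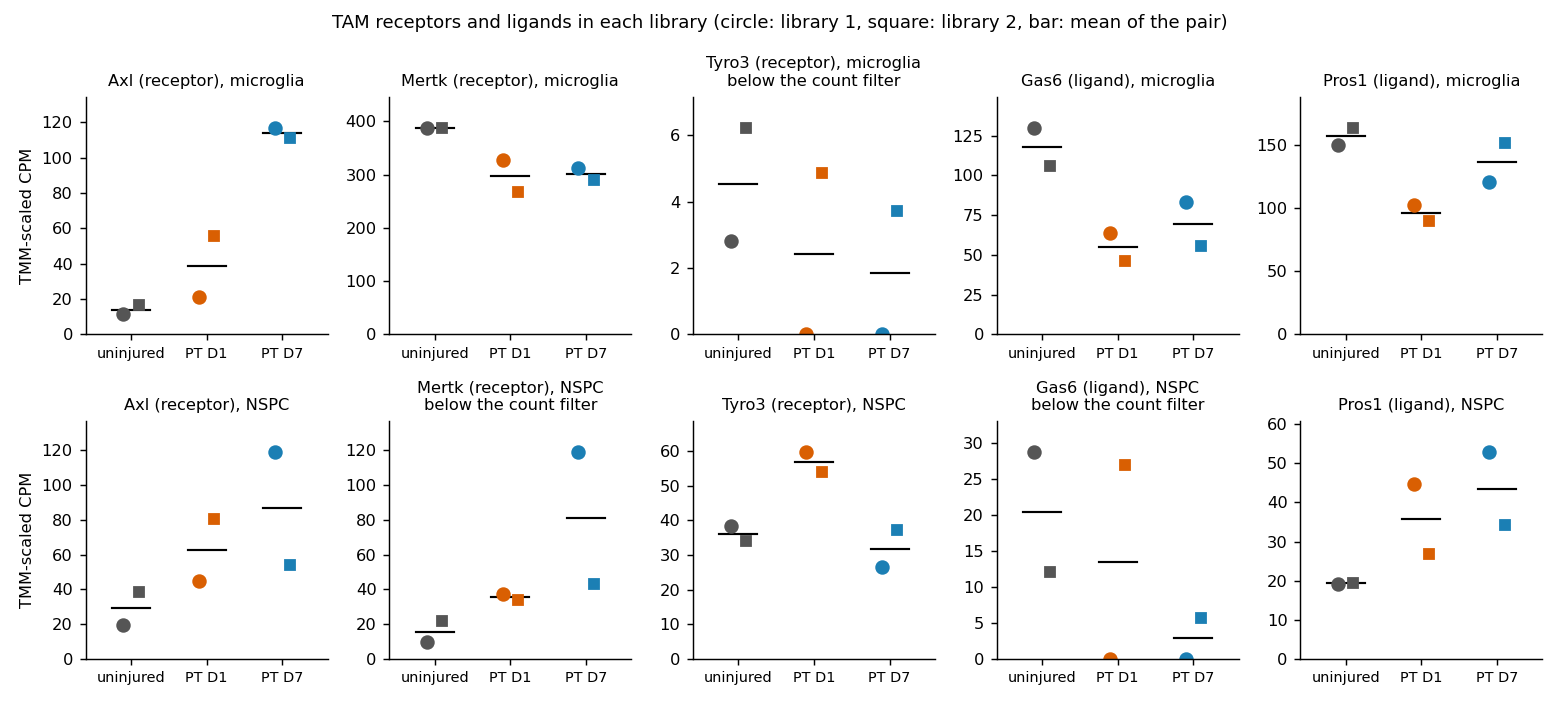
TMM-scaled CPM (vertical axis, linear, own scale per panel) of each member in the summed microglia (top) and NSPCs (bottom) of each library, by group (horizontal axis), with a circle for library 1, a square for library 2 and a bar for their mean. In microglia Axl reaches 117 and 111 CPM at PT D7 against 11.3 and 16.6 CPM in uninjured mice, and in NSPCs Axl and Mertk are highest in PT D7 library 1, at 119 CPM each.

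In NSPCs no member was called in any comparison. Of 3 members tested, 0 were called at PT D1, 0 at PT D7 and 0 for PT D7 against PT D1, beside 2.12%, 0.0815% and 0.632% of 4907 genes. Mertk and Gas6 were below the filter on low counts.

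Axl in NSPCs stood at 19.2 and 38.7 scaled CPM in the uninjured libraries, 44.7 and 80.7 CPM at PT D1 and 119 and 54.2 CPM at PT D7. Each PT library lay above both uninjured ones, and the PT groups overlapped. The log2 fold change was 0.99 (SE 0.52, adjusted p = 0.385) at PT D1 and 1.04 (SE 0.54, adjusted p = 0.995) at PT D7 by edgeR's quasi-likelihood test. In quiescent type B cells, which held the most Axl, the unscaled level was 67.5 CPM (29.1 to 133) in uninjured mice, 116 CPM (60.1 to 203) at PT D1 and 214 CPM (125 to 343) at PT D7, from 17, 18 and 15 cells. The intervals of all 3 groups overlapped with one another, and 7 of the 17 UMIs at PT D7 came from the 4 cells of library 1.

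Tyro3, which was highest in activated type B and type C cells in the levels above, stood at 38.3 and 33.9 scaled CPM in uninjured NSPCs, 59.7 and 53.8 CPM at PT D1 and 26.5 and 37.1 CPM at PT D7. The PT D1 libraries lay above the others, by 0.67 (SE 0.53, adjusted p = 0.62) on the log2 scale against uninjured. Pros1 stood at 19.2 and 19.4 scaled CPM in uninjured NSPCs, 44.7 and 26.9 CPM at PT D1 and 52.9 and 34.2 CPM at PT D7, and its log2 fold changes were 0.77 (adjusted p = 0.702) and 0.99 (adjusted p = 0.995) by the same edgeR test. Gas6 gave 3 and 5 UMIs in uninjured NSPCs, while the PT D1 libraries gave 0 and 8 UMIs and those of PT D7 gave 0 and 2.

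Mertk in NSPCs came from cells with 3 or more microglia marker UMIs and from cells with fewer, in shares that differed between libraries. The uninjured libraries gave 1 and 9 UMIs, those of PT D1 5 and 10, and those of PT D7 9 and 15. All 9 UMIs of PT D7 library 1 lay in 1 quiescent type B cell that held 88 UMIs of the 8 microglia markers, together with 5 of the 9 Axl UMIs and 3 of the 4 Pros1 UMIs of that library's NSPCs. In uninjured library 2 all 9 Mertk UMIs lay in the 41 of 59 NSPCs with 3 or more microglia marker UMIs. Of the Mertk UMIs of PT D1, 4 of 5 in library 1 and 2 of 10 in library 2 lay in cells with 3 or more marker UMIs. In PT D7 library 2 it was 2 of 15, in 19 such cells, and 10 lay in quiescent type B cells with fewer, at 206 unscaled CPM. Over all libraries, NSPCs with 3 or more microglia marker UMIs held Mertk at 30.8 CPM and the others at 31.5 CPM, and for Axl these levels were 41.5 and 56.2 CPM. Within quiescent type B cells the Mertk levels were 157 and 87.1 CPM, and within activated type B cells 8.18 and 52.4 CPM. Of the 92 NSPCs with 3 or more, 22 were type C cells and 32 neuroblasts, which gave 0 and 2 Mertk UMIs in all. The pooled levels thus mix subclusters that differ in direction.

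**Figure D4:**
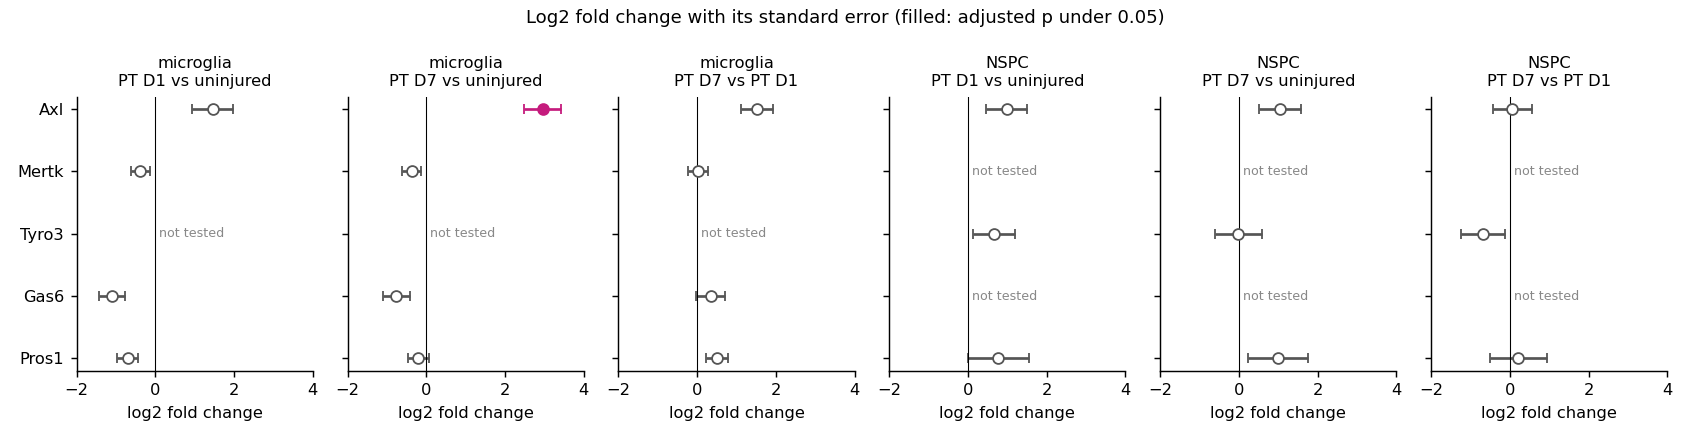
Log2 fold changes (horizontal axis) of the members that passed the filter on low counts, in microglia (left 3 panels) and NSPCs (right 3 panels). Lines are standard errors derived from the F statistic of edgeR's quasi-likelihood test. Axl at PT D7 in microglia, at 2.96, is the filled point with an adjusted p under 0.05, and Gas6 at PT D1 in microglia, at -1.10, is the lowest.

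Whether a member changed differently in microglia and NSPCs was tested by the interaction of class and condition, with the library as a block. Of 5 members 0 were called at PT D1, beside 0.24% of 7514 genes, and 0 at PT D7, beside 0.0399%. For Axl the microglial change exceeded that of NSPCs by 0.34 (SE 0.78, adjusted p = 0.984) at PT D1 and 1.66 (SE 0.76, adjusted p = 1) at PT D7. For Mertk it was lower by -2.19 (SE 0.68, unadjusted p = 0.00116, adjusted p = 0.964) at PT D7. The PT D7 differences of Axl and Mertk both include the single NSPC described above, which held 5 of the 9 Axl UMIs of its library's NSPCs. The rise of Axl in microglia was thus not shown to be particular to them.

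The wider pathway was read from 2 lists. They were chosen with earlier results of these data known, so the counts of called genes are a description and no test of the lists. The first list holds 18 genes of TAM ligand maturation, receptor shedding and signalling, and the second 29 genes of other phosphatidylserine receptors, bridging proteins and engulfment. In microglia at PT D1, 2 of 11 tested genes of the first list rose and 0 fell, and in the second 1 of 17 rose and 1 fell, beside the 5.7% of all genes called. The median log2 fold change was 0.01 for either list and 0.04 for all genes. At PT D7 against uninjured 0 of 11 and 0 of 17 were called, beside 0.165% of all genes.

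Socs3, a feedback inhibitor of cytokine receptors, rose in microglia at PT D1. It stood at 48.1 and 54.0 scaled CPM in uninjured libraries, 352 and 413 CPM at PT D1 and 45.9 and 48.2 CPM at PT D7. The PT D1 libraries were far above the others, which overlapped. The log2 fold change was 2.89 at PT D1 (SE 0.28, adjusted p = 0.000484) and -3.01 (SE 0.29, adjusted p = 0.000498) between PT D7 and PT D1. In NSPCs Socs3 was the 1 gene called of 8 tested in the first list at PT D1, beside 2.12% of all genes. It rose there by 2.54 (SE 0.56, adjusted p = 0.0142, edgeR's quasi-likelihood test), and the change was -2.63 (adjusted p = 0.0412) at PT D7 against PT D1. The first call held in 9 of 10 alternatives and was lost without uninjured library 2 (adjusted p = 0.14). The second held in 7 of 11 and was lost without PT D7 library 2 (-1.28, adjusted p = 0.555), with the replicate block (adjusted p = 0.0615), with the uninjured libraries left out of the fit (adjusted p = 0.0738) and by DESeq2 (adjusted p = 0.999).

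Cd300lf, a phosphatidylserine receptor of myeloid cells, stood at 14.2 and 12.5 scaled CPM in uninjured microglia, 289 and 221 CPM at PT D1 and 12.5 and 14.8 CPM at PT D7. Its PT D1 libraries did not overlap with the others, and the change of 4.23 (SE 0.36, adjusted p = 0.000234) was called, as was the -4.17 (adjusted p = 0.000432) between PT D7 and PT D1. Lgals3, which encodes galectin-3, a ligand reported for Mertk, rose by 2.10 (SE 0.53, adjusted p = 0.0417) at PT D1, from 17.0 and 41.5 CPM to 63.8 and 194 CPM. Elmo1, an adaptor of engulfment, fell by 2.00 (SE 0.42, adjusted p = 0.0198 by edgeR's quasi-likelihood test), from 181 and 187 CPM to 72.9 and 21.9 CPM. The call on Lgals3 held in 7 of 17 alternatives and that on Elmo1 in 15 of 17, and PT D1 library 2, which holds most cluster 3 cells, was the farthest from the uninjured libraries for both.

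In the second list Cd300lf was the 1 gene of 17 called in microglia between PT D7 and PT D1, beside 3.8% of all genes. In NSPCs 0 of 9 tested genes of the second list were called in any comparison, in cluster 0 at PT D7 0 of 8 and 0 of 13 were called, and in the interaction 0 of 13 and 0 of 20 at either time.

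Across the 9 subclusters the members fell into different patterns. These were described by Pearson's r of log2(CPM + 10) between 2 genes over the 9 subclusters, for 5139 genes with 100 or more UMIs. The 9 points share libraries and differ in depth, so no p is given. Mertk and Pros1 were alike (r = 0.969), as were Mertk and Gas6 (r = 0.903) and Gas6 and Pros1 (r = 0.899), since all 3 were high in microglia and low in neuroblasts. Axl had r of -0.161 to 0.147 with them. Tyro3 had too few UMIs for this measure.

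The genes most like Axl were Atp6v0e (r = 0.877), a subunit of the vacuolar proton pump, Apoe (r = 0.874), an apolipoprotein of glia, and Ifitm3 (r = 0.847), an interferon-induced membrane protein. Apoe stood at 12400 unscaled CPM in cluster 4 and 7860 CPM in quiescent type B cells, the 2 subclusters with the most Axl, and at 730 to 2990 CPM elsewhere. For Mertk they were Cst3 (r = 0.987), which encodes cystatin C, Usp2 (r = 0.98) and Irf2 (r = 0.98). For Gas6 they were Orai1 (r = 0.975), Gm37138 (r = 0.974) and Rgs2 (r = 0.971), and for Pros1 Hexa (r = 0.993), a lysosomal hexosaminidase subunit, Lair1 (r = 0.992) and Itgb5 (r = 0.991), an integrin subunit of the list of engulfment genes. With a pseudocount of 1 the 3 genes named for Axl were the same, and those for Mertk were Dnase2a, Hivep3 and Junb.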

How the data were processed

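Single cells of the SVZ were sorted into plates and sequenced by mCEL-Seq2, with a 6-base UMI and a 6-base barcode per cell. The submitters' processing notes name bcl2fastq 2.17.1.14 and GRCm39, and no source used here states the aligner, the counter, its use of strand or the annotation. Whole UMI counts per gene and cell were deposited by the authors without normalization. The authors kept cells above 1000 UMIs, took counts beyond 3 median absolute deviations for doublets, and computed the mitochondrial percent of each cell from its counts, with a limit of 25%. Classes and subclusters are those of the authors' cell table, of which 13 columns were not used.

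UMIs were summed per library over microglia, NSPCs or cluster 0 cells (libraries with 10 or more such cells) and fitted with edgeR 4.0.16 (R 4.3.3) with TMM scaling, filterByExpr, the 3 conditions together, the quasi-likelihood test and Benjamini-Hochberg adjustment over all genes tested. The common biological coefficient of variation was 0.233 in microglia and 0.173 in NSPCs. The script was tested on simulated data. Exact Poisson and Clopper-Pearson intervals at 95% cover counting error only, and with 2 libraries against 2 an exact permutation test cannot go below 0.33, so none was run. Thinned shares are the share of cells expected to keep a UMI at 1000 UMIs.

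Libraries with equal numbers deviated together in microglia (correlations of 0.22, 0.193 and 0.262 across genes) and not in NSPCs (0.095, -0.0581 and -0.041). For PT D7 that number is the final digit of the cell-name prefix. The named genes are the 5 members, list genes called in a comparison, up to 4, and the 3 genes most like each member with 100 or more UMIs. 1 microglia marker and 1 called pathway gene are not reported here. The members and lists were chosen with earlier results of these data known. Promoter windows and positions come from the GRCm39 genome and the GENCODE annotation. Alternatives were DESeq2 1.42.0, other filters and scaling, a replicate block, leaving out each library, and subsets of cells.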

Additional observations from a re-analysis of the deposited data

How the results depend on the processing

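Over all 34 fold changes of members, 396 values were computed under alternatives, of which 362 kept their direction and their side of the threshold, 15 turned direction, 11 gained and 8 lost a call. In microglia at PT D7 against uninjured the number of members called fell from 1 to 0 without TMM scaling, without cells that held 3 or more UMIs of the other class markers, without cluster 4 cells and without border macrophage marker cells, and was 0 to 1 over the libraries left out. The Axl change there ranged from 2.30 to 4.00 with adjusted p from 5.4e-07 to 0.993, and DESeq2 gave 3.02 with an unadjusted p of 6.2e-05 and no adjusted p. At PT D1 against uninjured the number rose from 0 to 1 with at least 10 UMIs in every library, with the library number as a replicate block, without cluster 3 cells and without border macrophage marker cells (Gas6 each time) and with at most 10% mitochondrial UMIs (Axl, 2.48, adjusted p = 0.0491), and was 0 to 2 over the libraries left out, the 2 being Axl and Gas6 without PT D1 library 1. Between PT D7 and PT D1 it rose from 0 to 1, Axl, without a filter on low counts, with the replicate block and without cluster 3 cells, and was 0 to 1 over the libraries left out. The block changed no other call of a member. Reversals were mostly near 0. They were Axl between PT D7 and PT D1 without cluster 4 cells (-0.45), Mertk in the same comparison without TMM scaling (-0.0856), with at least 10 UMIs in every library (-0.0761), without cells of other class markers (-0.0061), without cluster 3 cells (-0.0824) and over libraries left out (-0.12 to 0.21), and Tyro3 in NSPCs at PT D7 without TMM scaling (0.0482), without a filter (0.0492) and over libraries left out (0.0003 to 0.11). With libraries left out, Axl in NSPCs between PT D7 and PT D1 ranged from -0.30 to 0.79, and in the interaction at PT D1 Axl ranged from -0.0712 to 0.52 and Gas6 from -2.08 to 3.88. In microglia at PT D7 against uninjured, 8 of all genes were called with TMM scaling and 6 without it. For the other alternatives the calls of members were not set against those of all genes. A call gained or lost is therefore not a trait of the member. The cause of these changes was not tested. Counts of 30 UMIs or fewer a library limit Axl, Tyro3 and, in NSPCs, every member. In microglia they also limit Gas6 in each PT library, at 15 to 21 UMIs, and Pros1 in PT D7 library 1, at 29 UMIs.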

Other observations

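The 20 mixed cells, which the authors placed in neither class, held more Gas6 than any subcluster, with 74 UMIs in 16 cells, or 397 unscaled CPM (312 to 498). By library this was 689 CPM in uninjured library 2, 445 and 343 CPM at PT D1, and 112 and 170 CPM at PT D7, from 3 to 5 cells each. In uninjured library 2, 1 cell held 25 of the 38 Gas6 UMIs, a spread between cells that the Poisson interval does not cover. Pros1 stood at 129 CPM (82.5 to 192) in the 20 mixed cells, Mertk at 26.8 CPM and Axl and Tyro3 at 16.1 CPM each. The mixed cells also held choroid plexus markers at 29300 CPM, oligodendrocyte markers at 7410 CPM, endothelial markers at 2040 CPM and ependymal markers at 1740 CPM, with microglia markers at 730 CPM, so no single cell type can be given to them. Their part in Gas6 of the SVZ was not tested between conditions, since no library held more than 5 of them.

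Cells with a UMI of Axl or Mertk were deeper than those without, and co-detection at equal depth was not tested. Of the 26 cluster 4 cells with an Axl UMI, 19 (73.1%) held Mertk and 15 (57.7%) held Pros1, against 54.5% and 45.5% of the 11 cells without Axl, whose median depth was 4706 UMIs against 7989.5 UMIs. In cluster 0, Mertk-positive cells had a median of 5114.5 UMIs against 2693 UMIs, and 60.3% of them held Pros1 against 28.2% of the others.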
